A study of Bos taurus with 34 samples.

Results

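Zinc, iron and copper handling genes were followed across the lining of the bovine reproductive tract. The members were the genes whose symbol starts with SLC30A, SLC39A, SLC11A, SLC31A or SLC40A, together with MT1A, MT1E, MT2A, MT3, FTH1, FTL, TF, TFRC, CP, ATP7A and ATP7B. This rule gave 40 names, of which 36 had a row in the count table, out of 21554 genes with a row in all. MT1E, SLC30A6, SLC30A7 and SLC39A9 had none. Where a gene had several rows, the one with most counts on average was used, and 23 of the 36 passed the filter on low counts and were tested.

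RNA came from 5 nulliparous Holstein heifers, numbered 10872, 10882, 11033, 11070 and 11110, whose cycles had been synchronised with an intravaginal progesterone device and which were slaughtered on day 2 after ovulation. The 34 libraries fell into 7 site groups. Ampulla (the part of the oviduct in which fertilisation takes place), upper uterine horn and mid uterine horn were each sampled ipsilateral and contralateral to the ovulation, and the uterine body was sampled once per animal. There were 5 heifers per site but 4 for the ipsilateral upper horn, and all animals had the same treatment, so there was no untreated group.

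Zinc, iron and copper are cofactors of many enzymes and are toxic when free in excess. SLC39A proteins bring zinc into the cytosol and SLC30A proteins take it out or into organelles, while metallothioneins bind zinc and copper through their cysteines. Transferrin carries iron to its receptor, ferritin stores it, and copper enters by SLC31A1 and is moved on by ATP7A and ATP7B. The uterus and oviduct secrete metal-binding proteins into the fluid around gametes and embryos.

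Library totals ran from 11619486 to 30412782 counts. Levels are given in CPM, counts scaled to a common library total with TMM factors, which correct for differences in library composition. A mean ± SD is over heifers, with the libraries of a region averaged within each heifer and the upper horn, mid horn and body weighted equally for the endometrium. Levels of different genes are not compared, as counts were not divided by length and were made per annotated transcript. Of the 23 tested members 12 had 1 annotated transcript, and of the 13 untested members with a row this held for 1, so a low count can also come from reads shared between transcripts.

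The labelled tissues carried their marker genes. Uterine markers fell in the ampulla in 3 of 3 cases, and ciliated and oviduct epithelium markers rose there in 6 of 6 and 4 of 4. The 6 tested stroma and the 6 tested endothelium markers all fell in the ampulla, and DCN and CLDN5 had 0 counts there against 19.2 to 79.1 and 31.6 to 201 CPM in endometrium libraries. LUM, PDGFRA, PDGFRB, PECAM1 and CDH5 also had 0 counts in the ampulla, but were low in the endometrium as well, with PECAM1 at most at 0.0909 CPM and CDH5 at most at 0.238 CPM. Summed over the list, stroma markers reached 38 to 101 CPM in ampulla libraries and 33765 to 78698 CPM in endometrium libraries. Smooth muscle markers fell in 5 of 5 tested cases, leukocyte markers in 1 of 2, and erythroid markers rose in 2 and fell in 1 of 3. General epithelium markers rose in 5 and fell in 1 of 7 and summed to 5550 to 7405 CPM in the ampulla and 931 to 4021 CPM in the endometrium. All differences between ampulla and endometrium below stand beside these shifts in cell markers, and in such tissue samples fewer cells of a type and less RNA per cell cannot be told apart.

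By oviduct markers or by detected features, 3 libraries stood apart. The contralateral mid horn library of heifer 10882 held 1271 CPM of oviduct epithelium markers, against at most 82.5 CPM in any other endometrium library. The libraries of the contralateral upper horn of heifer 11033 and of the contralateral ampulla of heifer 11070 held the fewest detected features, 16049 and 15773. Fold changes in the ampulla that rest on these libraries are also given without them.

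In the ampulla MT3, SLC30A8, SLC31A1, SLC39A2 and SLC39A3 rose against the endometrium, and CP, SLC30A10, TF, SLC11A1, SLC11A2, SLC39A1, SLC39A7 and FTL fell. That is 13 of 23 tested members, or 56.5%, while 64.9% of all 17241 features tested were called in this comparison, 29.4% higher and 35.6% lower in the ampulla. At an unadjusted p under 0.05 these were 14 members and 67.9% of features. The share of members called was thus near the background and below it. The median log2 fold change was -0.45 over the members and -0.18 over all features. A call is an adjusted p under 0.05 in edgeR's quasi-likelihood test, with group and heifer as terms. Log2 fold changes are estimates of the same fit on the log scale, so they can differ from the ratio of the printed means. Without the 3 libraries that stood apart, 5 members were called higher and 7 lower.

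**Figure D1:**
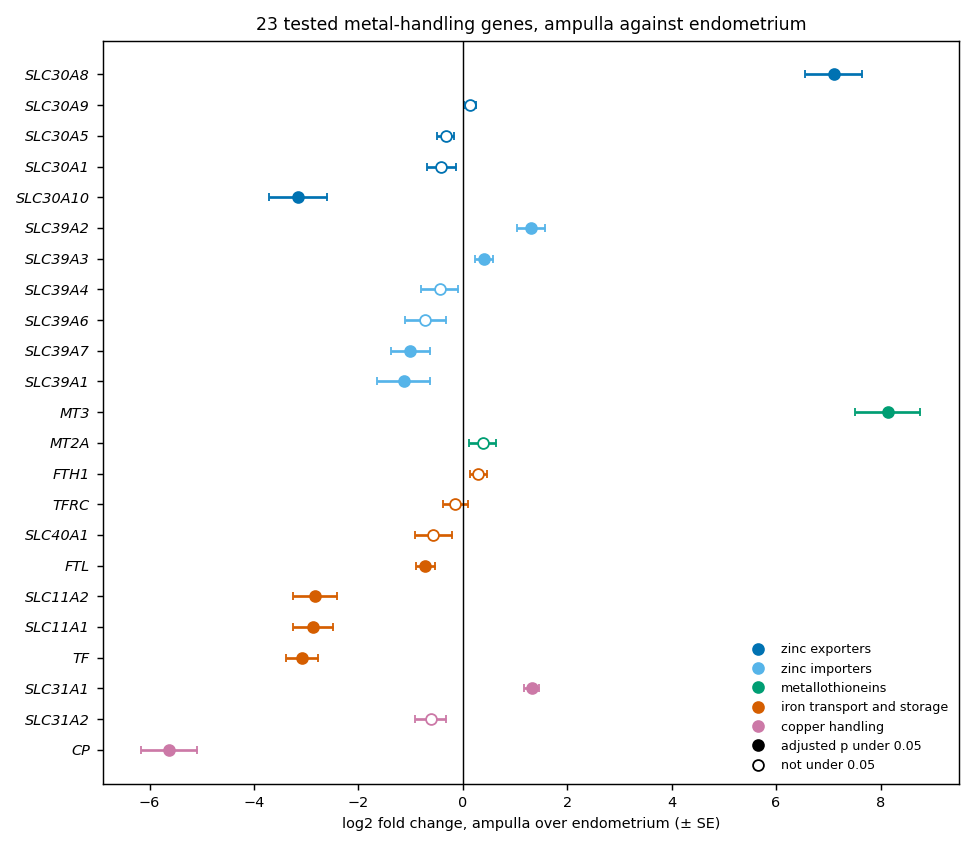
Log2 fold change of the 23 tested members in the ampulla over the endometrium, with bars of ± 1 SE and colours for the role of the gene. Filled points passed an adjusted p of 0.05. MT3 and SLC30A8 lie near 8.14 and 7.10, CP at -5.62, and the other members between -3.16 and 1.32.

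Of the 5 tested members of the SLC30A family, grouped here as zinc exporters, the ampulla had 1 higher and 1 lower. That is 40.0% called, against 64.9% of all features. SLC30A8, which loads zinc into the insulin granules of pancreatic beta cells, had 1.46 to 16.6 CPM in the 10 ampulla libraries (median 3.0) and 0 to 1.08 CPM in the 24 endometrium libraries, where the median was 0. Every ampulla library lay above every endometrium library. The means were 4.29 ± 3.04 and 0.0715 ± 0.115 CPM (SD, n = 5 heifers), higher in 5 of 5 heifers. The fitted log2 fold change was 7.10 ± 0.55 (SE) with an adjusted p of 5.16e-12. The ipsilateral mid horn held 0 counts and each upper horn group 1 count, so the size of this estimate depends on the prior count of the fit. The highest endometrial value, 1.08 CPM, was that of the contralateral mid horn library of heifer 10882, and without that library the highest was 0.286 CPM and the log2 fold change 7.02.

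SLC30A8 also varied within the ampulla. The contralateral ampulla held 4.08, 1.46, 3.34, 2.63 and 2.26 CPM in heifers 10872, 10882, 11033, 11070 and 11110. On the ipsilateral side the values were 2.15, 2.65, 4.34, 16.6 and 3.38 CPM in the same order. Heifer 11070 stood apart on the ovulatory side alone, and the other ampulla libraries overlapped between the sides.

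SLC30A10, a manganese exporter of the same family, had 0 to 0.250 CPM in the ampulla, where its 10 libraries held 12 counts in all, and 0 to 1.32 CPM in the endometrium. Means were 0.0617 ± 0.0540 and 0.547 ± 0.321 CPM, a log2 fold change of -3.16 ± 0.56 (adjusted p 1.04e-05), lower in 5 of 5 heifers. The ranges overlapped. The lowest libraries of the contralateral mid horn, ipsilateral upper horn and body held 0.0933, 0.206 and 0.243 CPM, and 1 endometrium library had no count.

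SLC30A1, the exporter of the cell membrane that is induced by zinc, averaged 34.6 ± 13.2 CPM in the ampulla against 46.4 ± 15.9 in endometrium (adjusted p 0.192). SLC30A5, which moves zinc into the secretory pathway, stood at 189.7 ± 64.9 and 236 ± 56.9 CPM (adjusted p 0.0841). SLC30A9, of mitochondria, stood at 96.1 ± 24.0 and 87.3 ± 11.7 CPM (adjusted p 0.335). These 3 overlapped widely between the regions, and the difference did not pass the test. Their log2 fold changes were -0.42 ± 0.28, -0.33 ± 0.17 and 0.13 ± 0.12. SLC30A5 passed in 4 of 12 alternative settings, among them DESeq2 size factors, at -0.41 and an adjusted p of 0.030. SLC30A1 passed in 2 of 12.

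Of the 6 tested SLC39A zinc importers 2 rose in the ampulla and 2 fell, 66.7% called against 64.9% of all features. SLC39A2, an importer of the cell membrane, had 0.836 to 7.42 CPM in the ampulla (median 2.55) and 0.364 to 2.75 CPM in the endometrium (median 1.11). Of the 10 ampulla libraries 5 lay above all endometrium libraries. The means were 2.97 ± 1.28 and 1.19 ± 0.340 CPM, higher in 4 of 5 heifers, and the fitted log2 fold change was 1.31 ± 0.28 (adjusted p 0.000131). The highest value was that of the contralateral ampulla library of heifer 11070, and without the 3 libraries that stood apart the log2 fold change was 1.13.

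SLC39A3, a related importer, averaged 4.24 ± 0.652 CPM in the ampulla against 3.21 ± 0.320 in endometrium, a log2 fold change of 0.41 ± 0.17 (adjusted p 0.0408), higher in 4 of 5 heifers. SLC39A7, which releases zinc from the endoplasmic reticulum, stood at 0.595 ± 0.394 and 1.05 ± 0.254 CPM, at -1.01 ± 0.37 (adjusted p 0.0193), lower in 5 of 5 heifers. SLC39A1 stood at 0.128 ± 0.0239 and 0.312 ± 0.115 CPM, at -1.13 ± 0.51 (adjusted p 0.0498), also lower in 5 of 5 heifers. These 3 calls were the least stable of the 13. Without the contralateral mid horn library of heifer 10882 the adjusted p was 0.0515 for SLC39A3 and 0.0642 for SLC39A1. Without heifer 11070 or heifer 11110, SLC39A7 gave 0.0917 and 0.111.

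SLC39A4, the zinc importer of the intestine, averaged 0.607 ± 0.314 CPM in the ampulla against 0.809 ± 0.278 in endometrium (log2 fold change -0.45 ± 0.35, adjusted p 0.262). SLC39A6, another importer, stood at 0.192 ± 0.0570 and 0.338 ± 0.134 CPM (-0.72 ± 0.38, adjusted p 0.101). Both missed the threshold, with overlapping ranges, and each passed in 1 of 12 alternative settings.

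Among the metallothioneins MT3 rose in the ampulla and MT2A did not pass the test. MT3, best known from the brain, had 6.71 to 52.8 CPM in the ampulla (median 17.5) and 0 to 4.06 CPM in the endometrium, with a median of 0.0535. The regions did not overlap, and 11 of 24 endometrium libraries had 0 counts. The means were 20.2 ± 11.4 and 0.199 ± 0.269 CPM, higher in 5 of 5 heifers, and the fitted log2 fold change was 8.14 ± 0.63 (adjusted p 1.55e-12). The body held 1 count over its 5 libraries, so the size of this estimate depends on the prior count of the fit. The value of 4.06 CPM belonged to the contralateral mid horn library of heifer 10882, which carried oviduct markers. Without it the highest endometrial value was 0.327 CPM and the log2 fold change 8.58.

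In the contralateral ampulla MT3 stood at 14.0, 6.71, 20.6, 52.8 and 16.4 CPM in heifers 10872, 10882, 11033, 11070 and 11110. The ipsilateral ampulla held 18.5, 9.55, 16.0, 25.2 and 22.5 CPM in that order. Heifer 11070 had the highest and heifer 10882 the lowest level on each side. The value of 52.8 CPM came from a library with few detected features. Without the 3 libraries that stood apart the log2 fold change was 8.32.

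MT2A, the widely expressed metallothionein, had a spread between heifers that was larger than its difference between regions. It had 17.0 to 46.3 CPM in the ampulla and 5.60 to 64.4 CPM in the endometrium, with means of 29.5 ± 8.42 and 26.9 ± 13.1 CPM. The level was higher in the ampulla of 2 heifers and lower in 3. The log2 fold change of 0.38 ± 0.25 did not pass (adjusted p 0.189), it was -0.061 without heifer 11070, and without heifer 11033 it was 0.62 with an adjusted p of 0.0237. Heifer 11070 had the lowest MT2A level in 5 of 5 endometrial sites, at 5.60 to 17.6 CPM. Heifer 11033 had the highest in 4 of 5, at 47.8 to 64.4 CPM in those.

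MT1A had 11 counts over all libraries and 0 in the ampulla. MT1E is not an official symbol in the RefSeq gene table but a synonym of 3 genes there, MT1A and also LOC613358 and LOC768319. The last 2 are not members and were looked at after their values were seen. LOC613358 averaged 13.5 ± 4.81 CPM in the ampulla against 8.05 ± 3.12 in endometrium (log2 fold change 0.85 ± 0.29, adjusted p 0.0103, higher in 4 of 5 heifers). Its call was lost without heifer 10882 or heifer 11070, at an adjusted p of 0.0617 and 0.0913. LOC768319 stood at 0.925 ± 0.791 and 0.0768 ± 0.0475 CPM (3.66 ± 0.59, adjusted p 2.61e-06, higher in 5 of 5). Metallothionein genes resemble each other closely, and how shared reads were counted is not given in the sources used here.

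**Figure D2:**
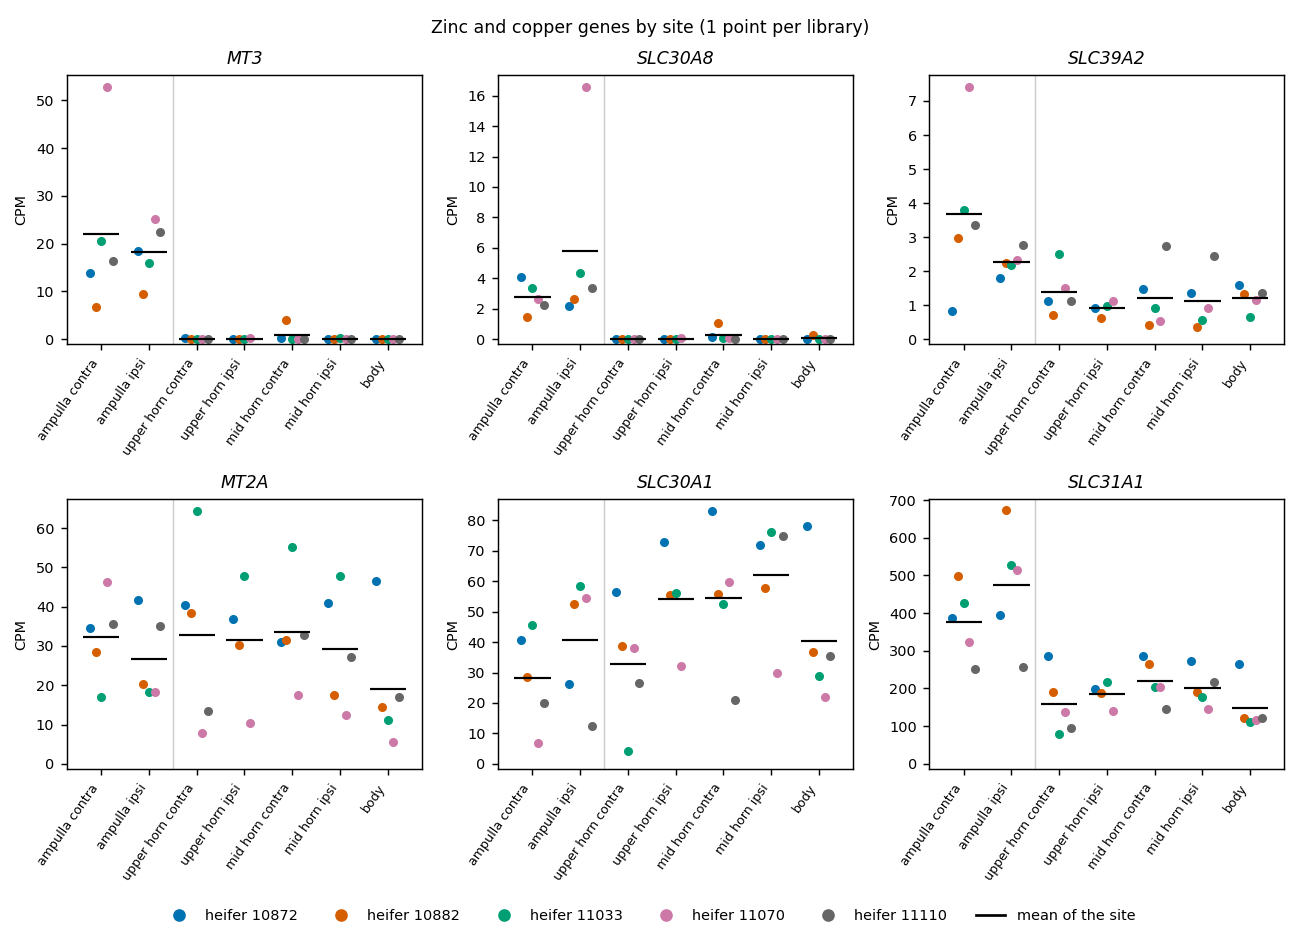
CPM of 6 zinc and copper genes at the 7 sites, 1 point per library coloured by heifer, with a line at the site mean. The axes are linear. MT3 and SLC30A8 are near 0 in the endometrium apart from the contralateral mid horn of heifer 10882 (4.06 and 1.08 CPM), SLC31A1 reaches 251 to 673 CPM in the ampulla, and MT2A and SLC30A1 overlap between regions.

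Of 7 tested iron genes 4 fell in the ampulla and 0 rose, which is 57.1% called. Among all features 64.9% were called, 35.6% lower and 29.4% higher. TF codes for transferrin, the iron carrier of plasma and secretions. It had 0.20 to 1.52 CPM in the ampulla (median 0.570) and 1.40 to 12.6 CPM in the endometrium (median 5.19). Of the 10 ampulla libraries 9 lay below all endometrium libraries. The means were 0.648 ± 0.323 and 5.42 ± 1.85 CPM, lower in 5 of 5 heifers, and the fitted log2 fold change was -3.07 ± 0.31 (adjusted p 2.83e-10).

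Within the endometrium TF was most uneven in the uterine body, where heifers 10872, 10882, 11033, 11070 and 11110 had 12.6, 2.47, 1.67, 9.03 and 2.97 CPM. The contralateral mid horn held 5.51, 6.22, 6.73, 7.95 and 4.85 CPM in that order and the ipsilateral mid horn 8.05, 4.86, 6.91, 6.13 and 4.81 CPM. The body therefore spanned both the highest and nearly the lowest endometrial values, while the mid horn was even.

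SLC11A2, the divalent metal transporter that brings iron into cells and out of endosomes, had 0.0517 to 1.12 CPM in the ampulla (median 0.339) and 0.888 to 24.0 CPM in the endometrium (median 2.85). The means were 0.482 ± 0.303 and 4.05 ± 2.61 CPM, lower in 5 of 5 heifers, and the fitted log2 fold change was -2.83 ± 0.42 (adjusted p 8.11e-07). Its high endometrial values came from heifer 11033, at 24.0 CPM in the contralateral upper horn, 7.15 in the ipsilateral upper horn and 11.1 in the contralateral mid horn. Without the 3 libraries that stood apart, the first of these among them, the log2 fold change was -3.05.

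SLC11A1, the metal transporter of phagosomes in macrophages and neutrophils, had 0 to 1.10 CPM in the ampulla (median 0.383) and 0.494 to 13.4 CPM in the endometrium (median 2.10). The means were 0.428 ± 0.305 and 3.29 ± 2.44 CPM, lower in 5 of 5 heifers, and the fitted log2 fold change was -2.87 ± 0.39 (adjusted p 1.38e-07). Macrophage markers moved with it: 4 of 4 tested fell in the ampulla, the list of 8 summed to 31.3 to 61.3 CPM there and 124 to 473 CPM in the endometrium, and CSF1R, the receptor of a macrophage growth factor, had 11.9 to 34.5 and 54.8 to 239.6 CPM. CD163, CD68, C1QA and MARCO had 0 counts in the ampulla but were nearly absent from the endometrium too, at no more than 0.193, 0.0772, 0.232 and 0.58 CPM. Their part in the result was not tested.

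The endometrial spread of SLC11A1 was largely that of heifer 11110, with 13.4 CPM in the contralateral mid horn, 10.6 in the ipsilateral mid horn and 8.80 in the body. Other heifers had 0.706 to 4.93 CPM at these sites. In the contralateral upper horn heifer 11110 had 1.39 CPM, within the 0.921 to 2.30 CPM of the others. In its 3 high libraries the macrophage list summed to 196, 348 and 124 CPM, the last being the lowest of all endometrium libraries.

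Ferritin is built of heavy chains, which oxidise iron, and light chains, which help it to mineralise. FTL, the light chain, had 397 to 1290.2 CPM in the ampulla (median 862) and 804 to 3163 CPM in the endometrium (median 1596). The means were 900.1 ± 126 and 1535 ± 482 CPM, lower in 4 of 5 heifers, and the fitted log2 fold change was -0.72 ± 0.17 (adjusted p 0.000655). The highest value was again that of the contralateral upper horn library of heifer 11033, without which the highest was 2452 CPM, and without the 3 libraries that stood apart the log2 fold change was -0.82. FTH1, the heavy chain, stood at 4411 ± 738 and 3606 ± 732 CPM, a log2 fold change of 0.30 ± 0.17 that did not pass (adjusted p 0.12), higher in 4 of 5 heifers. The chains thus had estimates of opposite sign, of which that of FTL passed the test.

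The number of FTH1 counts per FTL count, a ratio within a library that no scaling can alter, separated the regions. It was chosen after the values of both genes were seen. It stood at 5.20, 4.65, 5.15, 4.73 and 5.06 in the contralateral ampulla of heifers 10872, 10882, 11033, 11070 and 11110 and at 4.73, 4.77, 4.45, 5.22 and 5.00 in the ipsilateral ampulla. The 24 endometrium libraries lay between 1.67 and 3.45, so no library of one region reached the other. The means were 4.90 ± 0.134 and 2.44 ± 0.429 (SD, n = 5 heifers), and the ratio was higher in the ampulla of 5 of 5 heifers by 1.02 ± 0.27 (SD) on the log2 scale. The 2-sided exact sign-flip permutation test over the 5 heifers gave p = 0.0625, the smallest it can give. Heifer 10872 had the lowest ratio at 5 of 5 endometrial sites, at 1.67 to 2.00. Ferritin genes have near-identical copies elsewhere in mammalian genomes, and the ratio rests on how reads shared with those were counted.

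**Figure D3:**
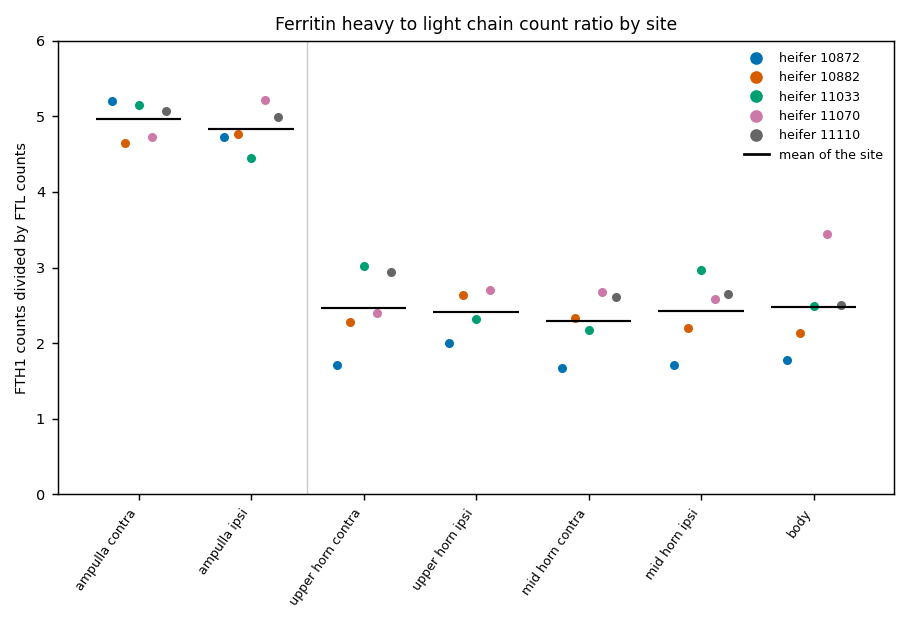
FTH1 counts divided by FTL counts in each library at the 7 sites, coloured by heifer, with a line at the site mean and a linear axis from 0. Ampulla libraries lie between 4.45 and 5.22 and endometrium libraries between 1.67 and 3.45.

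TFRC, the transferrin receptor, averaged 1.19 ± 0.393 CPM in the ampulla against 1.25 ± 0.195 in endometrium (log2 fold change -0.14 ± 0.24, adjusted p 0.611). SLC40A1, ferroportin, the iron exporter, stood at 0.373 ± 0.192 and 0.567 ± 0.154 CPM (-0.57 ± 0.35, adjusted p 0.160). Neither passed the test, and both rest on few counts, 864 and 373 over all libraries.

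Copper genes went both ways. SLC31A1, the high-affinity copper importer, had 251 to 673 CPM in the ampulla (median 410.0) and 80.3 to 285 CPM in the endometrium (median 188), and 8 of 10 ampulla libraries lay above all endometrium libraries. The means were 425 ± 121 and 173 ± 52.7 CPM, higher in 5 of 5 heifers, and the fitted log2 fold change was 1.32 ± 0.14 (adjusted p 7.04e-10). SLC31A2, a related protein of endosomes and lysosomes, stood at 0.447 ± 0.192 and 0.695 ± 0.280 CPM (-0.62 ± 0.29, adjusted p 0.0666) and passed in 3 of 12 alternative settings. ATP7A and ATP7B, the copper pumps, had 153 and 12 counts over all libraries and were not tested.

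CP, ceruloplasmin, is a copper protein that oxidises iron for loading onto transferrin. It had 0 counts in 7 of 10 ampulla libraries and at most 0.20 CPM in the others, and 1.46 to 15.6 CPM in the endometrium (median 2.40). No ampulla library reached any endometrium library. The means were 0.0502 ± 0.0475 and 2.88 ± 1.26 CPM, lower in 5 of 5 heifers, and the fitted log2 fold change was -5.62 ± 0.53 (adjusted p 8.02e-11). With both CP rows summed the log2 fold change was -3.49. The highest value, 15.6 CPM, was that of the contralateral upper horn library of heifer 11033, against 1.47 to 4.21 CPM in the other 4 heifers at that site. Without this library the highest endometrial value was 4.30 CPM, and without the 3 libraries that stood apart the log2 fold change was -5.47.

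TF and CP are best known as liver products. Of 5 liver markers tested beside them 3 rose in the ampulla and 0 fell. Their summed level was 799 and 1165 CPM in the ampulla of heifer 11110, 36.9 to 119 CPM in the other 8 ampulla libraries and 94.2 to 301 CPM in the endometrium, and it was lower in the ampulla of 4 of 5 heifers. APOA1 was the largest part of the sum in the endometrium, at 81.4 to 248 CPM, and reached 1062 CPM in the ampulla. Its median was lower in the ampulla (26.1 against 122 CPM), while the medians of ALB, TTR, FGB and AHSG were higher there. The part of these markers in the TF and CP results was not tested.

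**Figure D4:**
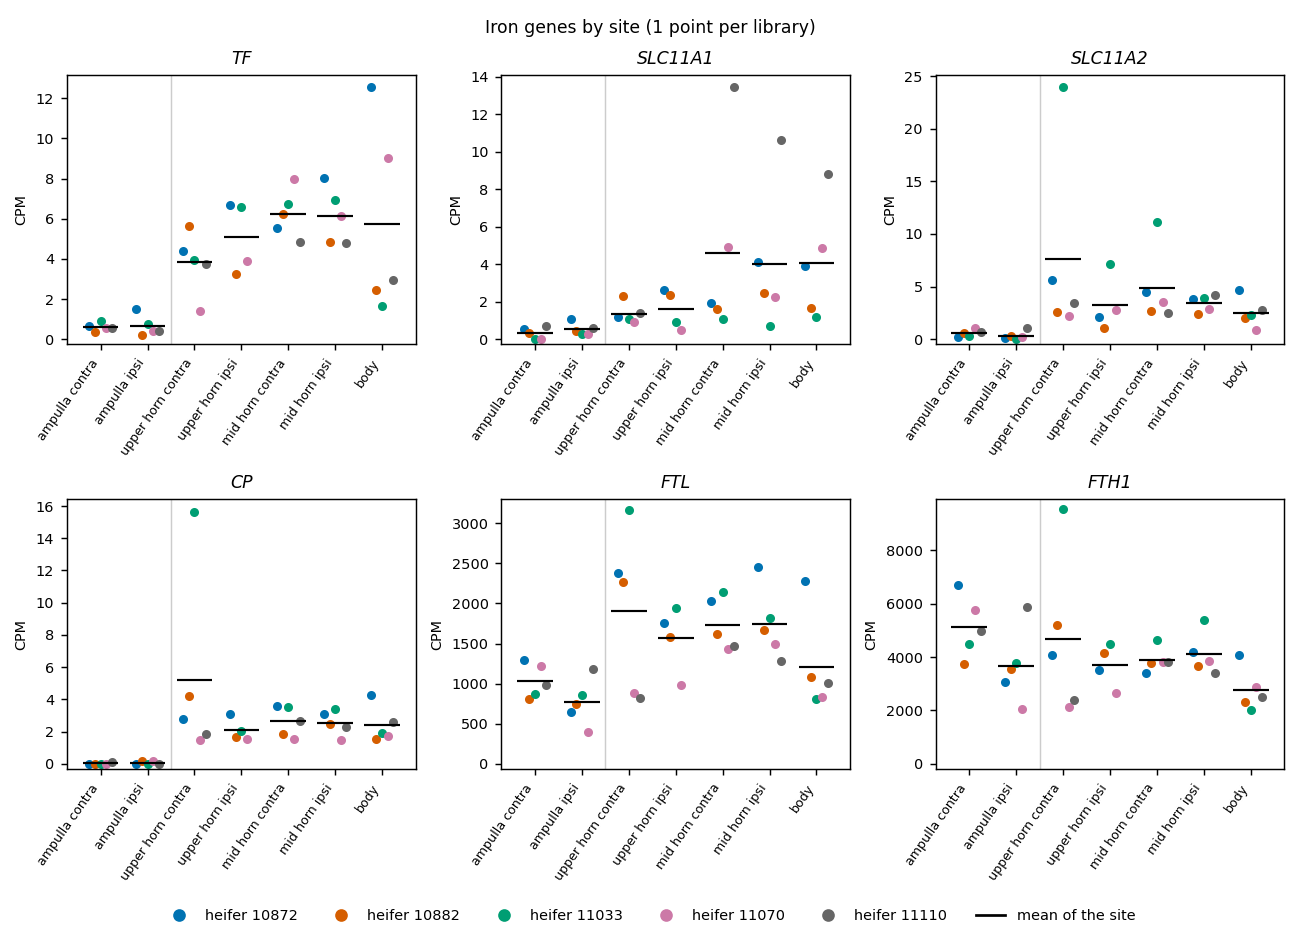
CPM of 6 iron genes, including ceruloplasmin, at the 7 sites, 1 point per library coloured by heifer, with a line at the site mean and linear axes. TF, SLC11A1, SLC11A2 and CP are low in both ampulla groups, and heifer 11033 stands high in the contralateral upper horn for SLC11A2 (24.0 CPM), CP (15.6 CPM) and both ferritin chains.

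The 13 members with a row that were not tested had 1 to 153 counts over all 34 libraries. Besides MT1A, ATP7A and ATP7B these were SLC30A2, SLC30A3, SLC30A4, SLC39A5, SLC39A8, SLC39A10, SLC39A11, SLC39A12, SLC39A13 and SLC39A14. SLC39A8, which also carries manganese and iron, had 40 counts in the 10 ampulla libraries and 26 in the 24 endometrium libraries, or 0.232 ± 0.116 and 0.0528 ± 0.0238 CPM, and was higher in the ampulla of 5 of 5 heifers. SLC30A2, an exporter of secretory vesicles, had 0 counts in the ampulla and 19 in the endometrium. SLC39A14, a carrier of zinc, iron and manganese, had 4 and 2 counts. At these counts differences between regions were not tested.

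Of a list of 61 other metal genes 48 had a row and 29 were tested. In the ampulla 13 rose and 6 fell, 65.5% called against the background of 64.9%, with a median log2 fold change of 0.22. Without heifer 11110 there were 8 higher in place of 13, and without the filter on low counts 10 lower in place of 6. Genes of zinc sensing and binding rose in 3 of 3 tested cases and copper chaperones and enzymes in 4 of 6, with 0 lower in each. These lists held 8 and 11 genes, and 29.4% of all features were called higher and 35.6% lower. Iron regulation and uptake gave 2 higher and 2 lower of 4, haem genes 2 and 2 of 8, mitochondrial iron genes 2 and 1 of 6, and iron sensing 0 and 1 of 2.

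Toward the ampulla, HP, haptoglobin, which binds free haemoglobin, rose by 4.07 ± 0.36 on the log2 scale to 9.25 ± 5.03 CPM. CA2, a zinc enzyme that makes bicarbonate, rose by 3.82 ± 0.48 to 394 ± 116 CPM, and STEAP4, a reductase of iron and copper, by 2.62 ± 0.17 to 93.6 ± 20.1 CPM. DBH, a copper enzyme of noradrenaline synthesis, rose by 2.39 ± 0.63 and was higher in 3 of 5 heifers. TMEM163, a zinc transporter, rose by 2.12 ± 0.26 and HEPHL1, related to ceruloplasmin, by 2.10 ± 0.37, each in 5 of 5 heifers. While CP fell in the ampulla, HEPHL1 therefore rose.

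Toward the endometrium, FLVCR2 averaged 0.592 ± 0.196 CPM in the ampulla against 7.72 ± 3.11 in endometrium (-3.59 ± 0.42). HMOX1, the haem oxygenase that frees iron from haem, gave -2.76 ± 0.22, and CYBRD1, a ferric reductase, -1.81 ± 0.13. STEAP2, another metal reductase, gave -0.80 ± 0.14, and IREB2, which binds the iron-responsive elements of ferritin and transferrin receptor mRNAs, -0.58 ± 0.11. These 5 were lower in 5 of 5 heifers. SLC25A28, a mitochondrial iron importer, gave -0.49 ± 0.17 and was lower in 4 of 5.

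Between the sites of the endometrium no member was called. In the mid horn against the body, where 4.45% of all features were called (0.528% higher and 3.92% lower), 0 of 23 members passed and 5 had an unadjusted p under 0.05, against 28.0% of all features. The 767 features called in this comparison became 1 without the contralateral mid horn library of heifer 10882 and 1228 without all 3 libraries that stood apart. They became 0 without heifer 10882 or heifer 11070, 2 without heifer 11033, 1835 without heifer 10872 and 1 without the heifer term. Of these MT3 had 1 count in the 5 body libraries and 104 and 10 counts in the contralateral and ipsilateral mid horn, most of the former in the library of heifer 10882 with oviduct markers (adjusted p 0.0715). With DESeq2 it alone passed. SLC31A1 stood at 211 ± 43.5 CPM in the mid horn and 147 ± 66.6 in the body (0.56 ± 0.21, adjusted p 0.0883). FTL stood at 1739.9 ± 363 and 1203 ± 615 CPM (0.57 ± 0.25, adjusted p 0.127), FTH1 at 4000.5 ± 579 and 2757 ± 799.8 CPM (0.51 ± 0.25, adjusted p 0.171) and MT2A at 31.4 ± 13.6 and 18.9 ± 16.0 CPM (0.82 ± 0.37, adjusted p 0.143). Without the filter on low counts MT3, FTL, FTH1 and MT2A were called, 4 members.

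In the upper horn against the body 0 of 23 members and 0.0232% of all features were called. The lowest adjusted p of a member was 0.428, that of SLC11A1, with 1.46 ± 0.658 CPM in the upper horn and 4.09 ± 3.05 in the body (-1.07 ± 0.46). Here 3 members had an unadjusted p under 0.05, against 11.2% of features. In the upper against the mid horn 0 members and 0.0174% of features were called (0.0116% higher and 0.0058% lower), and 2 members, SLC11A1 and SLC31A1, had an unadjusted p under 0.05, against 6.08% of features. Their log2 fold changes were -0.97 ± 0.41 and -0.38 ± 0.17, with an adjusted p of 0.790 for each.

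The comparison of sides asked whether metal genes differed with the side of ovulation. No member was called in the ampulla, the upper horn or the mid horn, where 0.0174%, 0.0058% and 0.0% of all features were called. At an unadjusted p under 0.05 there were 1, 1 and 2 members, against 7.25%, 6.89% and 2.98% of features. In the ampulla this was SLC39A7, with 0.679, 0.317, 0.524, 0 and 0.0646 CPM in the contralateral libraries of heifers 10872, 10882, 11033, 11070 and 11110 and 1.31, 0.750, 1.45, 0.735 and 0.123 CPM in the ipsilateral ones. It was higher on the ovulatory side in all 5 heifers, at a log2 fold change of 1.43 ± 0.61 and an adjusted p of 0.637.

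In the upper horn this was SLC40A1, with 0.281, 0.318, 0, 0.258 and 0.417 CPM on the contralateral side and 0.819, 0.419, 0.977 and 1.42 CPM on the ipsilateral side of heifers 10872, 10882, 11033 and 11070. The log2 fold change was 1.56 ± 0.61 (adjusted p 0.706), and the value of 0 was that of the smallest library. In the mid horn these were SLC30A8 and MT3 (adjusted p 1.0 for each). SLC30A8 had 32 counts in the 5 contralateral libraries, 25 of them in the library of heifer 10882 with oviduct markers, and 0 in the 5 ipsilateral ones, so that its fitted fold change depends on the prior count of the fit. MT3 gave -2.90 ± 1.14, and -0.061 without that library. The difference between the side effect in the ampulla and that in the horns passed for 0 of 23 members and 0 of 17241 features, with 0 members and 5.32% of features at an unadjusted p under 0.05.

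**Figure D5:**
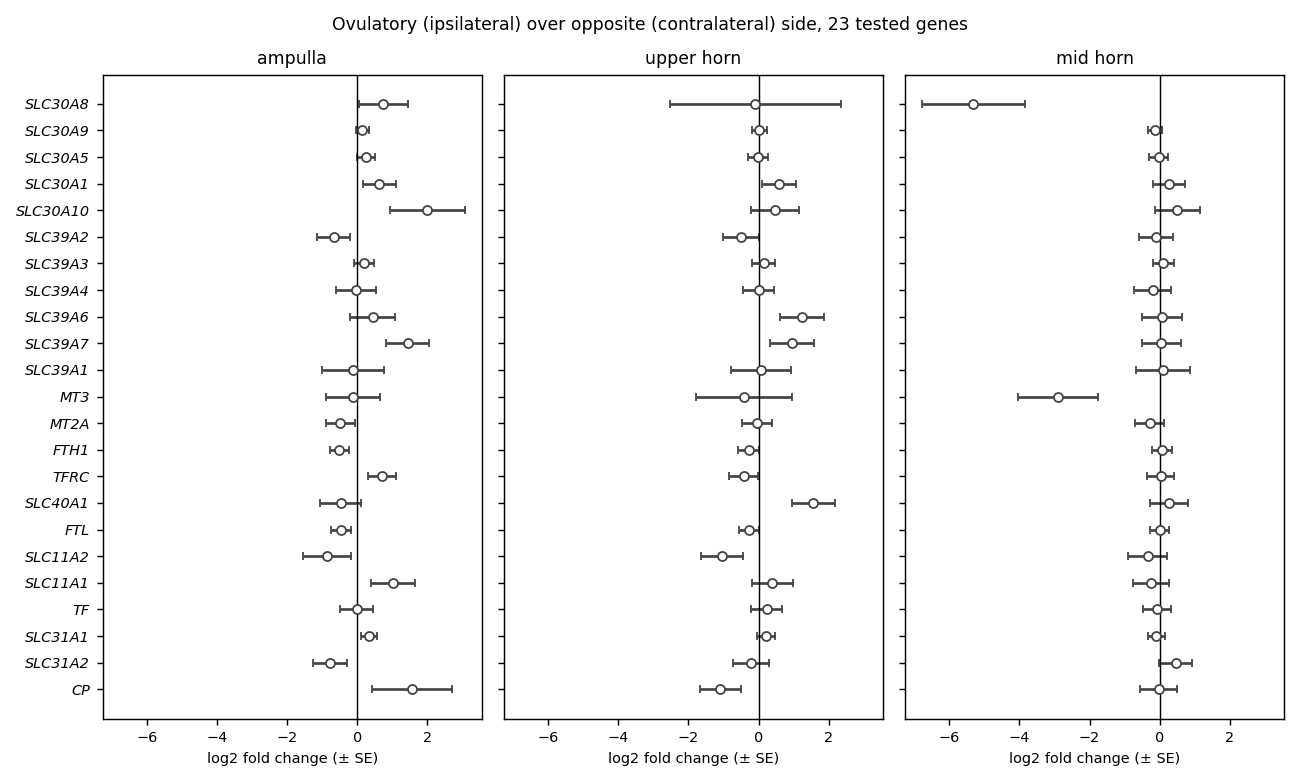
Log2 fold change of the ovulatory over the opposite side for the 23 tested members in the ampulla, upper horn and mid horn, with bars of ± 1 SE. Open points did not pass an adjusted p of 0.05, which held for all of them, and in the mid horn MT3 (-2.90) and SLC30A8, whose fitted value stands against 0 ipsilateral counts, have most of their contralateral counts in the library of heifer 10882 with oviduct markers.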

How the data were processed

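The authors deposited 1 table of raw read counts per annotated transcript or gene, with 38568 features and 1 column for each of the 34 libraries. Tools named per the submitters' processing notes, with no role or order, are SAMtools, HTSeq, STAR 2.7.9a and cutadapt. Libraries were stranded per the labels' protocols. Build, annotation, strand setting and treatment of shared reads: not given in the sources used here.

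Gene names were looked up in RefSeq's genes for assembly ARS-UCD2.0, and this matched 26362 features to 21554 genes with 95.3% of counts. No coordinates or sequences were used.

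Tests used edgeR 4.0.16 in R 4.3.3 with TMM factors, filterByExpr, robust quasi-likelihood dispersions and F tests, modelling group plus heifer in 1 fit of all libraries and 8 contrasts. Benjamini-Hochberg adjustment ran over the 17241 features of a contrast. SE is the log2 fold change divided by the square root of F. The code was tested on simulated data. Same-numbered libraries come from the same heifer by the labels: their deviations from group means had a median correlation of 0.296 (99 pairs), against -0.0693 between heifers (396 pairs).

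By the rule for names, full values go to up to 20 members called between ampulla and endometrium and to TF, TFRC, FTH1, FTL, SLC40A1, CP, MT1A and MT2A, names to members called elsewhere, and values to the 6 other metal genes with the largest change in each direction. Members with an unadjusted p under 0.05 elsewhere were named after their values were seen. Members and lists were chosen with earlier results of these data known. Alternatives were DESeq2 1.42.0, its size factors, no filter, no heifer term, summed features and fewer libraries.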

Additional observations from a re-analysis of the deposited data

Results flagged for a closer look

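A member is listed here where the highest or lowest library of a site stood apart from the others of that site by the gap between them as a share of the range. For independent, normally distributed values the cutoff gives about 1 in 20 by chance, or 8 of the 160 member and site pairs looked at. CPM near 0 and several genes of the same library are not such values, so an excess over chance cannot be read from this number. There were 19 such cases. Of these 5 were in the body library of heifer 10872, where FTL stood at 2283 CPM (others 804 to 1088), MT2A at 46.5 (5.60 to 16.9), SLC30A1 at 78.3 (22.1 to 36.9), SLC30A10 at 1.32 (0.243 to 0.476) and SLC31A1 at 266 (111 to 122). The contralateral upper horn library of heifer 11033, the smallest of all, gave 3: CP at 15.6 CPM (1.47 to 4.21), SLC11A2 at 24.0 (2.25 to 5.66) and SLC39A4 at 2.99 (0.187 to 0.794). SLC11A2 was also high in the contralateral mid horn of that heifer, at 11.1 CPM (2.52 to 4.49).

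The contralateral mid horn library of heifer 10882, which carried oviduct markers, stood out for MT3 at 4.06 CPM (0 to 0.222) and SLC30A8 at 1.08 (0 to 0.178). SLC30A8 was high in the ipsilateral ampulla of heifer 11070, at 16.6 CPM (2.15 to 4.34). In 5 further cases the others were at or near 0: SLC30A8 at 0.0368 and 0.0618 CPM in the contralateral and ipsilateral upper horn of heifer 11070 and at 0.286 in the body of heifer 10882, MT3 at 0.0555 in the body of heifer 11033, and CP at 0.129 in the contralateral ampulla of heifer 11110. Low values were SLC39A4 in the contralateral ampulla of heifer 10872, at 0.105 CPM (0.711 to 0.798), and SLC39A6 in the ipsilateral upper horn of heifer 10872, at 0.263 CPM (0.671 to 0.720).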

How the results depend on the processing

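In the ampulla against the endometrium 10 of the 13 member calls held under all 12 alternatives, and none changed sign. SLC39A1, SLC39A3 and SLC39A7 lost the call in 5 of 10, 7 of 12 and 2 of 12. Of the members not called, SLC30A5 passed in 4 of 12 alternatives, SLC31A2 in 3, SLC30A1 in 2, and MT2A, SLC39A4 and SLC39A6 in 1 each. The number of member calls stayed within 1.5 times of 13. For the other metal genes, leaving out a heifer in turn gave 8 (without heifer 11110) to 13 called higher, and without a filter 10 in place of 6 were called lower. In the mid horn against the body 1 member was called with the DESeq2 test and 4 without a filter, and without a filter 2 were called between the sides of the mid horn; the cause was not tested. Leaving out a heifer in turn turned the sign of 3 estimates that had not passed: MT2A ranged from -0.061 (without heifer 11070) to 0.62 (without 11033, where it passed), SLC30A9 from -0.069 (without 11033) to 0.22, and MT3 between the sides of the mid horn from -3.78 to 0.055 (without 10882). Without the replicate block of heifers the ampulla had 5 members called higher and 8 lower, as with it. Members with few counts limit the precision: SLC39A1 had 23 counts in the ampulla, and the 13 members below the filter were not tested in the main design.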
